A study of Drosophila melanogaster with 8 samples.

Results

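Cytochrome P450 genes were followed in fly heads after knockdown of the chromatin factor gene row. The 79 genes were all rows of the deposited count table whose symbol is built of Cyp, a family number, a subfamily letter and a gene number, and they stood among 13781 gene symbols in all. Their symbols were all found unchanged in RefSeq for the Release 6 assembly, where all 79 are listed as protein-coding. Cyclophilin genes such as Cyp1, and P450 genes that the table lists under trivial names (phm, sad, shd and spok), are not in this set. The study compared heads of Drosophila melanogaster of the genotype Actin-gal4/+ (control, 3 libraries) with heads of Actin-gal4/+; UAS-rowRNAi1/+ flies (row_RNAi1, 2 libraries) and Actin-gal4/+; UAS-rowRNAi2/+ flies (row_RNAi2, 3 libraries). The yeast activator Gal4, under the Actin promoter, is active in most tissues and switches on a UAS transgene, here a hairpin RNA directed at row. All groups carry the Gal4 driver, and the control carries no UAS insertion by its label, so knockdown and the background of each RNAi line cannot be told apart. Flies were kept at 25 °C in 12 hours of light and 12 hours of dark, and rested 3 days after exposure to CO2 before collection. The labels state neither age nor sex, nor whether replicate libraries stem from different collections of flies, so p-values cover only the spread among these libraries, which may be technical.

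Cytochrome P450 enzymes are heme proteins that insert an oxygen atom into lipids, hormones, plant toxins and insecticides. Insect P450s fall into the CYP2, CYP3, CYP4 and mitochondrial clans, and they receive electrons from the reductase Cpr in the endoplasmic reticulum or from ferredoxins in mitochondria. In the fly, members of the Cyp6, Cyp9, Cyp28 and Cyp12 families are known for detoxification, Cyp4 members mostly for oxidation of fatty acids and hydrocarbons, and several single-gene families for steps of ecdysteroid metabolism. Many of these genes lie in tandem arrays of close relatives.

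The libraries held 6230666 to 18046699 counts from 3′ RNA-seq, which samples the 3′ ends of transcripts, and P450 genes took 0.237% to 0.308% of them. Levels are given as CPM, counts scaled to a common total after TMM (trimmed mean of M-values) correction of library sizes. CPM is not divided by transcript length, so levels are compared between groups for one gene and not between genes. The targeted gene row was lower in both RNAi lines, at 14.3, 14.9 and 12.1 CPM in the controls, against 5.93 and 4.22 in row_RNAi1 and 8.04, 5.97 and 8.28 in row_RNAi2, listed here and below in order of replicate number. All knockdown libraries lay below all controls for row, with log2 fold changes of -1.44 (SE 0.19, edgeR adjusted p = 1.81e-05) and -0.90 (SE 0.17, edgeR adjusted p = 0.00175). Here and below, edgeR adjusted p stands for the quasi-likelihood F test in edgeR with Benjamini-Hochberg adjustment over all 9442 genes tested, and a gene was called when it was under 0.05. Of the 79 P450 genes, 67 had enough counts to be tested and 51 of those averaged at least 5 CPM. The remaining 12 had between 1 and 45 counts over all 8 libraries.

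P450 transcripts moved in both directions, and falls outnumbered rises. In row_RNAi1, 21 of the 67 tested members fell, including Cyp6w1 and the male-biased Cyp4d21, and 13 rose, including the insecticide-resistance gene Cyp6g1. In row_RNAi2, 13 fell and 8 rose, led by Cyp309a1 and Cyp12d1-p. Over all genes tested, 10% were called lower and 11.2% higher in row_RNAi1, against 31.3% and 19.4% of the tested members. Counting both directions, 21.2% of all genes were called in row_RNAi1 and 10.8% in row_RNAi2. In row_RNAi2 the shares by direction were 5.34% and 5.49% over all genes, against 19.4% and 11.9% of the members. These shares of members stood above those of all genes in either line and direction, and the difference itself was not tested. Among genes of at least 5 CPM, 60.8% of members and 23.7% of all genes were called in row_RNAi1, and 37.3% and 12.1% in row_RNAi2. The median size of the log2 fold change, without its sign, was 0.48 for those members and 0.17 for all such genes in row_RNAi1, and 0.29 and 0.12 in row_RNAi2. With sign, the median log2 fold change of the tested members was -0.09 in row_RNAi1 and -0.02 in row_RNAi2, close to the -0.01 of all genes tested in each line. Both lines were set against the same 3 control libraries, so the results of the lines are not independent. In bulk heads, fewer cells of a type and less RNA per cell cannot be told apart.

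Summed over all members, P450 transcripts stood at 2819.9 to 2875 CPM in controls, 2531 to 2578 in row_RNAi1 and 2732 to 2849.6 in row_RNAi2. The row_RNAi1 libraries lay below all controls in this sum, whereas the row_RNAi2 libraries overlapped them. The Cyp6 sum was 1099 to 1146 CPM in controls, 914 to 946 in row_RNAi1 and 951 to 991 in row_RNAi2, and the Cyp4 sum 583 to 603 CPM in controls, 487 to 499 in row_RNAi1 and 512 to 556 in row_RNAi2, with all knockdown libraries under all controls in each. Cyp28 transcripts summed to 319.8 to 332 CPM in controls, 378 to 401 in row_RNAi1 and 414 to 462 in row_RNAi2. The Cyp12 sum was 213 to 226 CPM in controls, 282 in row_RNAi1 and 229 to 254 in row_RNAi2, and the Cyp309 sum 33.2 to 44.7 CPM in controls, 57.9 to 58.7 in row_RNAi1 and 99.7 to 105 in row_RNAi2. In the Cyp12, Cyp28 and Cyp309 families all knockdown libraries lay above all controls. The Cyp313 sum was 128 to 157 CPM in controls, 84.8 to 91.2 in row_RNAi1 and 98.6 to 121 in row_RNAi2. The remaining 12 genes of other families summed to 122 to 129 CPM in controls, 63.0 to 64.4 in row_RNAi1 and 103 to 120 in row_RNAi2. In both of these sums all knockdown libraries lay below all controls. For the 5 Cyp9 genes the sum was 282 to 289 CPM in controls, 244 to 257 in row_RNAi1 and 281 to 303 in row_RNAi2. These sums are dominated by the members with the most counts, and the 6 largest (Cyp6g1, Cyp28d1, Cyp6d5, Cyp12a4, Cyp9f2 and Cyp4e2) held 44.6% of all P450 counts.

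**Figure D1:**
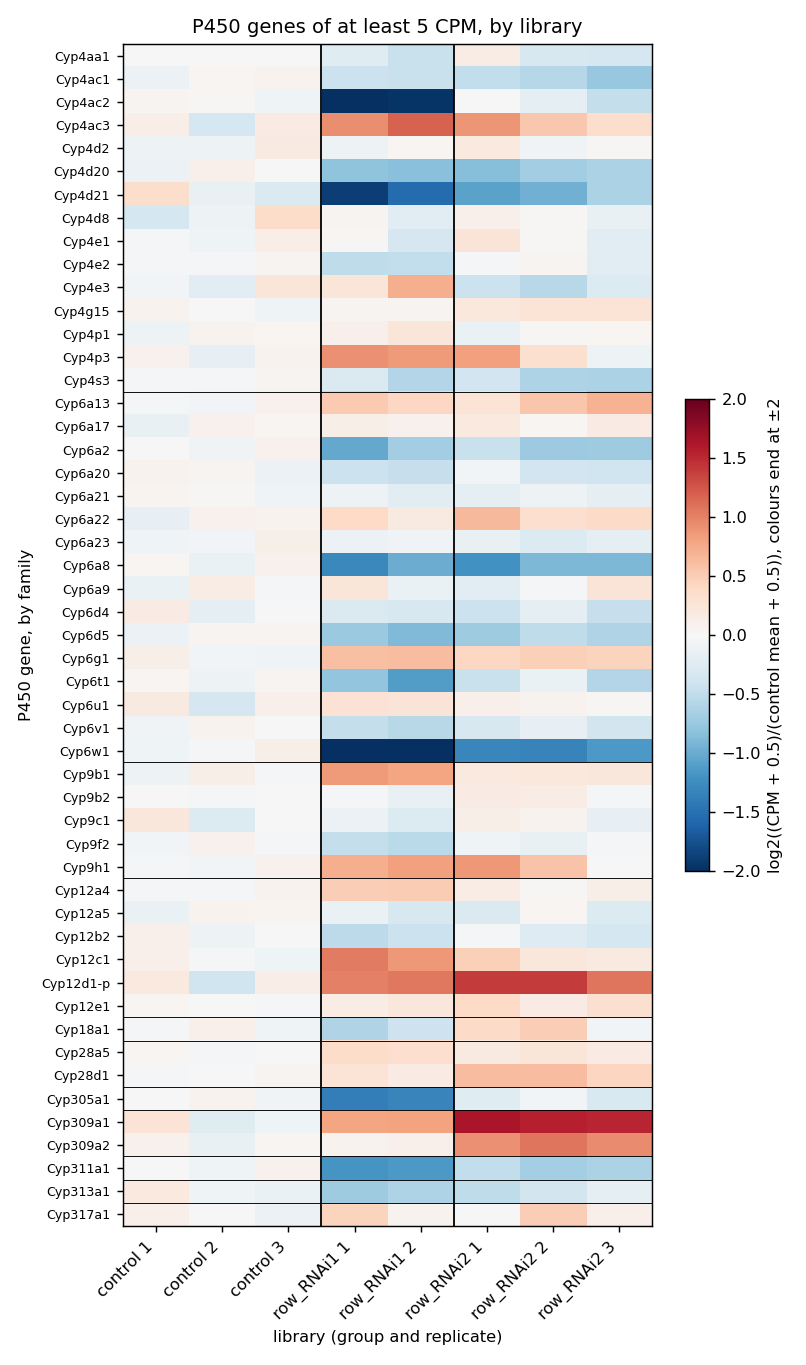
Levels of the 51 tested P450 genes with a mean of at least 5 CPM in each of the 8 libraries, as log2 of (CPM + 0.5) over (control mean + 0.5), ordered by family, with colours that end at -2 and 2 on that scale. Cyp6w1, Cyp4d21 and Cyp6a8 are blue in all knockdown libraries, Cyp309a1 and Cyp12d1-p are red in all of them, and Cyp4ac2 and Cyp305a1 are deep blue in the row_RNAi1 libraries.

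By family, the counts were as follows, beside the 21.2% of all genes called in row_RNAi1 and the 10.8% called in row_RNAi2. Of 22 Cyp4 genes 19 were tested, of which 7 fell and 4 rose in row_RNAi1 (median log2 fold change -0.09), and 5 fell and 1 rose in row_RNAi2 (median -0.03). Of 22 Cyp6 genes 19 were tested, with 7 down and 2 up in row_RNAi1 (median -0.10) and 5 down and 3 up in row_RNAi2 (median -0.20). The Cyp12 family of mitochondrial enzymes had 3 rising and 1 falling members of 6 in row_RNAi1 (median 0.35) and 1 rising in row_RNAi2 (median 0.19). Of 5 Cyp9 genes 2 rose and 1 fell in row_RNAi1, and in row_RNAi2 their log2 fold changes ran from -0.09 to 0.50. Of 4 Cyp28 genes 1 rose in each line, Cyp28a5 in row_RNAi1 and Cyp28d1 in row_RNAi2. Of 2 Cyp309 genes 1 rose in row_RNAi1 and 2 in row_RNAi2. Of 6 Cyp313 genes 2 were tested, and 1 fell in each line. Over the remaining single-gene and small families, 4 of 10 tested genes fell in row_RNAi1 and 2 in row_RNAi2.

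Members known for the response to xenobiotics split into genes that fell and genes that rose. Cyp6w1, Cyp6a8, Cyp6a2 and Cyp6d5 fell in both lines, and Cyp12d1-p and Cyp6g1 rose in both. The barbiturate phenobarbital is known to induce genes on either side, among them Cyp6a2, Cyp6a8 and Cyp12d1. Cyp6w1 was measured at 149.8, 155 and 172 CPM in the controls, against 36.9 and 32.4 in row_RNAi1 and 64.3, 62.9 and 71.3 in row_RNAi2. The knockdown libraries lay far below all controls, at 21.8% and 41.6% of the control mean, with log2 fold changes of -2.20 (SE 0.10, edgeR adjusted p = 4.90e-11) in row_RNAi1 and -1.26 (SE 0.08, edgeR adjusted p = 1.25e-08) in row_RNAi2. Levels of Cyp6a8 were 15.8, 14.0 and 16.4 CPM in the controls, against 5.99 and 7.51 in row_RNAi1 and 6.40, 8.05 and 8.01 in row_RNAi2. Its change was -1.18 (SE 0.15, edgeR adjusted p = 1.73e-05) in row_RNAi1 and -1.01 (SE 0.15, edgeR adjusted p = 0.000117) in row_RNAi2, with no overlap between knockdown and control libraries. The difference between the lines, 0.17 (SE 0.17, edgeR adjusted p = 0.605), did not pass the test. Cyp6a2, whose transcript is raised in some DDT-resistant strains, stood at 19.2, 18.3 and 20.4 CPM in the controls, against 9.20 and 11.7 in row_RNAi1 and 14.1, 11.5 and 11.6 in row_RNAi2. It fell to 54.2% and 64.2% of the control mean, changes of -0.88 (SE 0.13, edgeR adjusted p = 9.31e-05) and -0.66 (SE 0.13, edgeR adjusted p = 0.00175). For Cyp6d5 the libraries gave 323, 364 and 366 CPM in the controls, against 209 and 189.8 in row_RNAi1 and 215, 247 and 230.3 in row_RNAi2. Again no knockdown library reached the control range, and the log2 fold changes were -0.82 (SE 0.09, edgeR adjusted p = 2.20e-06) and -0.60 (SE 0.08, edgeR adjusted p = 3.66e-05).

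Rising genes of this kind included Cyp6g1, whose overexpression confers resistance to DDT and neonicotinoids, and Cyp12d1-p, a mitochondrial P450 also linked to DDT resistance. Cyp6g1 was at 265, 235 and 231 CPM in the controls, against 369 and 375 in row_RNAi1 and 323, 339 and 329.9 in row_RNAi2. All knockdown libraries exceeded all controls, with changes of 0.61 (SE 0.08, edgeR adjusted p = 1.48e-05) in row_RNAi1 and 0.44 (SE 0.07, edgeR adjusted p = 0.000342) in row_RNAi2 on the log2 scale. Cyp12d1-p rose from 6.04, 3.82 and 5.80 CPM in the controls to 11.0 and 11.4 in row_RNAi1 and 14.6, 14.6 and 11.6 in row_RNAi2, or 214% and 260.0% of the control mean. The log2 fold changes were 1.11 (SE 0.18, edgeR adjusted p = 0.000205) and 1.38 (SE 0.18, edgeR adjusted p = 2.91e-05). The fly genome is known to carry a near-identical tandem copy, Cyp12d1-d, which was not analysed here, and reads of the copies may be shared. Cyp28d1, linked to nicotine tolerance, was at 214, 219.5 and 229 CPM in the controls, against 268 and 249 in row_RNAi1 and 338, 338 and 298 in row_RNAi2. Every knockdown library exceeded every control, and the change in row_RNAi2 passed the test, at 0.55 (SE 0.07, edgeR adjusted p = 4.77e-05). In row_RNAi1 it was 0.23 (SE 0.08, edgeR adjusted p = 0.0603) and passed without control replicate 3 (0.26, edgeR adjusted p = 0.0468) or without row_RNAi2 replicate 1 (0.23, edgeR adjusted p = 0.0474) or without row_RNAi2 replicate 3 (0.23, edgeR adjusted p = 0.0410). Cyp12a4, which gives resistance to lufenuron when overexpressed, was at 112, 110.2 and 119 CPM in the controls, against 159.8 and 162 in row_RNAi1 and 125, 115 and 123 in row_RNAi2. It rose in row_RNAi1, by 0.50 (SE 0.08, edgeR adjusted p = 9.40e-05), and had 0.09 (SE 0.07, edgeR adjusted p = 0.529) in row_RNAi2, where its libraries overlapped the controls.

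Cyp4e3, which contributes to permethrin tolerance in the Malpighian tubule, had 0.53 (SE 0.17, edgeR adjusted p = 0.0377) in row_RNAi1 and -0.43 (SE 0.18, edgeR adjusted p = 0.180) in row_RNAi2. Its row_RNAi1 call was lost without control replicate 1 (0.102), control replicate 2 (0.153) and row_RNAi1 replicate 2 (0.533), with edgeR adjusted p in brackets. Cyp6a23 had -0.10 and -0.20, Cyp6d4 -0.31 and -0.36, and Cyp28d2 0.06 and 0.27 on the log2 scale in row_RNAi1 and row_RNAi2. Cyp6g2, a tandem neighbour of Cyp6g1, had too few counts for a test (27 over all libraries). In all, 4 of the 12 tested members of this list fell and 4 rose in row_RNAi1, and 4 fell and 3 rose in row_RNAi2. Their median log2 fold changes were -0.02 and -0.28. Over all genes tested, the shares called lower and higher were 10% and 11.2% in row_RNAi1, and 5.34% and 5.49% in row_RNAi2.

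**Figure D2:**
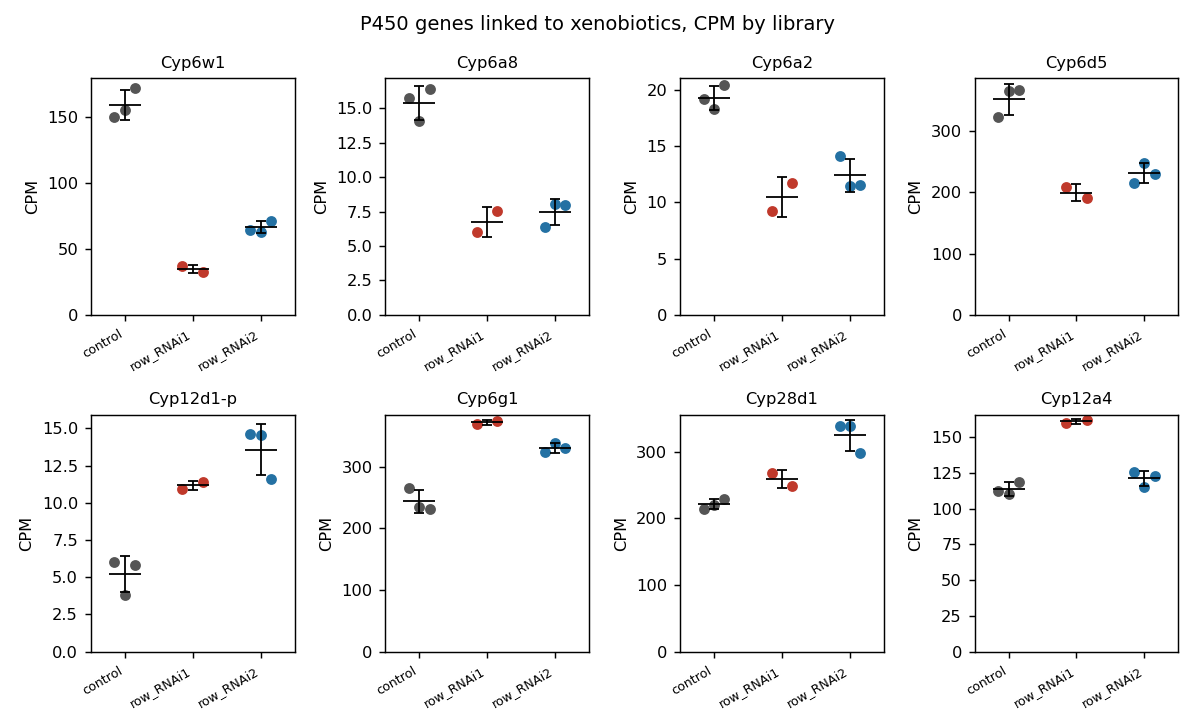
CPM in each library for 8 P450 genes linked to xenobiotics, by group, with each axis starting at 0; points are libraries, and bars are the mean ± SD over 3 control, 2 row_RNAi1 and 3 row_RNAi2 libraries. Cyp6w1, Cyp6a8, Cyp6a2 and Cyp6d5 lie lower in both lines, Cyp12d1-p, Cyp6g1 and Cyp28d1 lie higher in both, and Cyp12a4 is higher in row_RNAi1.

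In the Cyp4 family Cyp4d21, Cyp4g1 and Cyp4ac2 fell by more than 1 on the log2 scale in row_RNAi1. Cyp4d21, also called sxe1, is a male-biased enzyme of non-neuronal head tissue linked to male courtship. It stood at 44.0, 30.8 and 28.1 CPM in the controls, against 8.90 and 11.5 in row_RNAi1 and 16.1, 17.3 and 22.0 in row_RNAi2. All knockdown libraries were under all controls, with -1.74 (SE 0.18, edgeR adjusted p = 9.47e-07) in row_RNAi1 and -0.86 (SE 0.16, edgeR adjusted p = 0.000983) in row_RNAi2. Because the share of males per library is unknown, transcripts with known sex bias were examined, chosen after the data were seen: the male-biased roX1 was at 684, 534 and 416 CPM in controls, 307 and 353 in row_RNAi1 and 422, 467 and 548 in row_RNAi2. Of these, roX1 and roX2 fell in row_RNAi1, with -0.72 (SE 0.15, edgeR adjusted p = 0.00196) and -0.43 (SE 0.13, edgeR adjusted p = 0.0303), and had -0.18 and -0.21 in row_RNAi2. The female-biased fit rose by 1.22 (SE 0.18, edgeR adjusted p = 8.17e-05) in row_RNAi1 and 1.55 (SE 0.17, edgeR adjusted p = 5.38e-06) in row_RNAi2, and the yolk protein gene Yp3 by 0.75 (SE 0.13, edgeR adjusted p = 0.000259) and 0.52 (SE 0.11, edgeR adjusted p = 0.00516). The yolk protein genes Yp1 and Yp2 had 0.04 and -0.23 in row_RNAi1 and 0.17 and 0.05 in row_RNAi2. Their part in the change of Cyp4d21 was not tested.

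Cyp4g1, the enzyme that makes cuticular hydrocarbons in oenocytes, was low and uneven in heads, with 4.60, 6.61 and 1.45 CPM in the controls, against 0.303 and 0.0578 in row_RNAi1 and 1.15, 1.18 and 0.712 in row_RNAi2. Knockdown libraries lay below all controls, with log2 fold changes of -4.49 (SE 0.68, edgeR adjusted p = 8.21e-05) and -2.08 (SE 0.49, edgeR adjusted p = 0.00882), but the controls themselves differed widely. Without control replicate 2 the change in row_RNAi2 was -1.56 (edgeR adjusted p = 0.0783). The oenocyte markers eloF, Fad2 and CG17560 were near 0, with averages of 0.037, 0.212 and 0.175 CPM in controls. Of the 7 listed oenocyte markers, 4 had enough counts to be tested, 3 of them with a mean of at least 5 CPM. The related Cyp4g15, which is expressed in the nervous system, was at 92.2, 88.8 and 83.2 CPM in the controls, against 91.8 and 91.4 in row_RNAi1 and 102, 106 and 107 in row_RNAi2. It had 0.06 (SE 0.08, edgeR adjusted p = 0.678) in row_RNAi1 and rose by 0.26 (SE 0.07, edgeR adjusted p = 0.0275) in row_RNAi2, a call that was lost without control replicate 2 (0.0699), control replicate 3 (0.0505), row_RNAi2 replicate 2 (0.0788) and row_RNAi2 replicate 3 (0.0785), with edgeR adjusted p in brackets.

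Further Cyp4 genes fell. Cyp4d20 went from 39.4, 46.2 and 42.8 CPM in controls to 24.2 and 23.6 in row_RNAi1 and 23.5, 26.3 and 27.3 in row_RNAi2, with no overlap, and its log2 fold changes were -0.84 (SE 0.09, edgeR adjusted p = 1.62e-06) and -0.73 (SE 0.08, edgeR adjusted p = 1.05e-05). Cyp4s3 went from 16.5, 16.5 and 17.6 CPM to 13.8 and 11.0 and to 12.8, 10.9 and 10.7 CPM, changes of -0.45 (SE 0.13, edgeR adjusted p = 0.0192) and -0.58 (SE 0.13, edgeR adjusted p = 0.00489). The row_RNAi1 call of Cyp4s3 was lost without control replicate 3 (0.0660) and row_RNAi1 replicate 2 (0.267), with edgeR adjusted p in brackets. Cyp4e2 fell in row_RNAi1, from 132 ± 5.09 CPM (SD, n = 3) to 93.0 ± 0.748 CPM (SD, n = 2), and stood at 126 ± 11.5 CPM (SD, n = 3) in row_RNAi2. The log2 fold changes of Cyp4e2 were -0.51 (SE 0.09, edgeR adjusted p = 0.000308) and -0.06 (SE 0.08, edgeR adjusted p = 0.723). Risers in row_RNAi1 were Cyp4e3, described above, Cyp4ac3 and Cyp4p3, described with their neighbours, and Cyp4d1, and in row_RNAi2 Cyp4g15, described above. Cyp4d1 had 1.23 (SE 0.39, edgeR adjusted p = 0.0318) in row_RNAi1 at 2.76, 1.14 and 1.67 CPM in controls and 3.63 and 4.85 CPM in row_RNAi1. The Cyp4d1 call was lost without control replicate 2 (0.134), control replicate 3 (0.0707), row_RNAi1 replicate 1 (0.0660) and row_RNAi1 replicate 2 (0.246), with edgeR adjusted p in brackets. Cyp4d2, Cyp4d8, Cyp4e1, Cyp4p1, Cyp4aa1, Cyp4ae1 and Cyp4c3 were not called in either line by edgeR, with log2 fold changes between -0.36 (Cyp4aa1 in row_RNAi1) and 0.64 (Cyp4c3 in row_RNAi2).

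**Figure D3:**
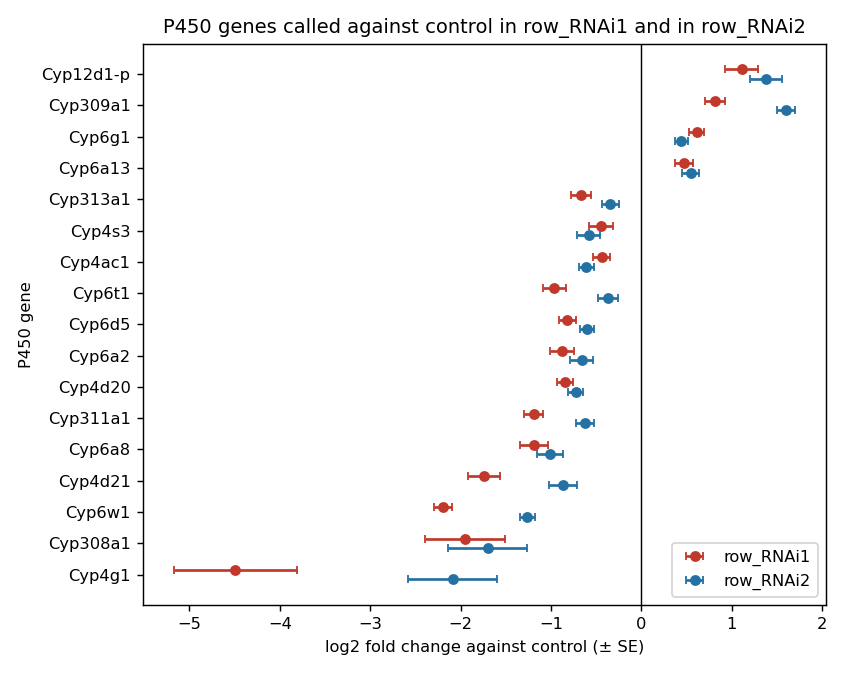
Log2 fold changes against control, from the edgeR fit over all 8 libraries, for the P450 genes called in row_RNAi1 and in row_RNAi2; points are the fitted values and bars the SE, and both lines share the 3 control libraries. Cyp12d1-p, Cyp309a1, Cyp6g1 and Cyp6a13 lie above 0 in both lines and the others below 0, down to -4.49 for Cyp4g1 in row_RNAi1.

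Outside the Cyp4 and Cyp6 families, the steepest rise in row_RNAi2 was that of Cyp309a1, a CYP3 clan gene. It was at 30.9, 21.5 and 24.1 CPM in the controls, against 44.3 and 44.7 in row_RNAi1 and 80.4, 75.6 and 74.2 in row_RNAi2. Groups were fully separated, at 175% of the control mean in row_RNAi1 and 301% in row_RNAi2, with 0.81 (SE 0.11, edgeR adjusted p = 2.15e-05) and 1.60 (SE 0.10, edgeR adjusted p = 6.21e-09). Its neighbour Cyp309a2 was at 13.8, 11.7 and 13.4 CPM in the controls, against 13.7 and 14.0 in row_RNAi1 and 24.8, 27.9 and 25.5 in row_RNAi2. Cyp309a2 rose in row_RNAi2 (1.02, SE 0.10, edgeR adjusted p = 2.35e-06), and in row_RNAi1 it overlapped the controls (0.10, SE 0.11, edgeR adjusted p = 0.611). Cyp28a5 rose in row_RNAi1 from 99.3 ± 2.75 CPM (SD, n = 3) to 127 ± 2.20 CPM (SD, n = 2), a change of 0.35 (SE 0.08, edgeR adjusted p = 0.00213), and had 0.20 (SE 0.07, edgeR adjusted p = 0.0831) in row_RNAi2, with all knockdown libraries above all controls.

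Mitochondrial P450s of the Cyp12 family differed among themselves. Cyp12c1 was at 25.0, 22.9 and 21.8 CPM in the controls, against 48.2 and 43.0 in row_RNAi1 and 32.5, 27.2 and 26.3 in row_RNAi2, so it was raised to 196% of the control mean in row_RNAi1. Its log2 fold change was 0.98 (SE 0.10, edgeR adjusted p = 6.97e-07) there and 0.29 (SE 0.10, edgeR adjusted p = 0.0730) in row_RNAi2. Cyp12b2 fell in row_RNAi1, from 59.5, 51.9 and 55.0 CPM to 38.4 and 40.9 CPM (-0.48, SE 0.09, edgeR adjusted p = 0.00107), and had -0.21 (SE 0.09, edgeR adjusted p = 0.157) in row_RNAi2, which passed without row_RNAi2 replicate 1 (-0.30, edgeR adjusted p = 0.0170). That gene overlaps Jabba, a lipid droplet protein gene that fell by 0.94 in row_RNAi1 and by 0.96 in row_RNAi2 on the log2 scale, and reads of the genes may be shared. Cyp12a5 and Cyp12e1 were not called by edgeR, with -0.24 and -0.16 for Cyp12a5 and 0.19 and 0.29 for Cyp12e1 in row_RNAi1 and row_RNAi2. Among the Cyp9 genes, Cyp9b1 and Cyp9h1 rose in row_RNAi1, by 0.85 (SE 0.13, edgeR adjusted p = 0.000106) and 0.79 (SE 0.17, edgeR adjusted p = 0.00203), and Cyp9f2 fell there, with -0.51 (SE 0.08, edgeR adjusted p = 0.000164). In row_RNAi2 these genes had 0.22, 0.50 and -0.09, on the log2 scale, and Cyp9h1 passed there without row_RNAi2 replicate 3 (0.73, edgeR adjusted p = 0.000908). Cyp9b2 and Cyp9c1 had log2 fold changes between -0.18 and 0.10.

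Cyp311a1 and Cyp313a1, of the CYP4 clan, were lower in both lines. Cyp311a1 stood at 27.7, 26.3 and 29.7 CPM in the controls, against 12.1 and 12.3 in row_RNAi1 and 19.7, 17.3 and 17.8 in row_RNAi2, with changes of -1.19 (SE 0.10, edgeR adjusted p = 1.28e-07) and -0.62 (SE 0.09, edgeR adjusted p = 0.000170) and no overlap with the controls. Cyp313a1 was at 156, 129 and 125 CPM in the controls, against 83.3 and 88.5 in row_RNAi1 and 96.1, 106 and 119.5 in row_RNAi2. It fell, with -0.67 (SE 0.11, edgeR adjusted p = 0.000153) in row_RNAi1 and -0.34 (SE 0.10, edgeR adjusted p = 0.0260) in row_RNAi2, and the latter call was lost without control replicate 1 (0.167), row_RNAi2 replicate 1 (0.103) and row_RNAi2 replicate 2 (0.0885), with edgeR adjusted p in brackets. Cyp313a1 overlaps Pde6, which had -0.38 in row_RNAi1, where it fell, and -0.06 in row_RNAi2. Cyp305a1, of the CYP2 clan, was at 68.2, 72.2 and 65.1 CPM in the controls, against 25.8 and 27.0 in row_RNAi1 and 57.6, 65.7 and 55.1 in row_RNAi2. It dropped to 38.6% of the control mean in row_RNAi1 (-1.37, SE 0.09, edgeR adjusted p = 4.95e-09) and stood at 86.8% in row_RNAi2 (-0.20, SE 0.08, edgeR adjusted p = 0.135), which passed without row_RNAi2 replicate 2 (-0.29, edgeR adjusted p = 0.0333). Cyp6t1 fell, with -0.96 (SE 0.13, edgeR adjusted p = 1.75e-05) in row_RNAi1 and -0.37 (SE 0.11, edgeR adjusted p = 0.0476) in row_RNAi2. The row_RNAi2 call of Cyp6t1 was near the threshold and was lost without control replicate 1 (0.148), control replicate 2 (0.0539), control replicate 3 (0.174), row_RNAi2 replicate 1 (0.116) and row_RNAi2 replicate 3 (0.220), with edgeR adjusted p in brackets. Cyp6v1 fell in row_RNAi1, with -0.53 (SE 0.10, edgeR adjusted p = 0.000591), and had -0.29 (SE 0.09, edgeR adjusted p = 0.0552) in row_RNAi2, which passed without row_RNAi2 replicate 2 (-0.36, edgeR adjusted p = 0.0427).

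Among P450s tied to hormones, behaviour, sense organs and cuticle, Cyp18a1 and Cyp6a20 fell in row_RNAi1, beside Cyp4d21, which fell in both lines as described above. Cyp18a1, the enzyme that inactivates ecdysteroids, was at 15.1, 16.5 and 14.5 CPM in the controls, against 9.99 and 11.4 in row_RNAi1 and 20.2, 21.9 and 14.9 in row_RNAi2. It lay below the controls in row_RNAi1 (-0.53, SE 0.15, edgeR adjusted p = 0.0196) and in row_RNAi2 replicates 1 and 2 lay above the controls and replicate 3 among them (0.29, SE 0.14, edgeR adjusted p = 0.242). Its row_RNAi1 call was lost without control replicate 2 (0.0771) and row_RNAi1 replicate 1 (0.185), and without row_RNAi2 replicate 3 the row_RNAi2 value passed, at 0.46 (0.0249), with edgeR adjusted p in brackets. Cyp6t3, which supports ecdysone synthesis in the larval prothoracic gland, stood near 1 CPM and had 0.29 and -0.55, and Cyp6u1 had 0.30 and 0.07 in row_RNAi1 and row_RNAi2, none called by edgeR. Cyp6a20, known for its role in male aggression and its expression beside pheromone-sensing neurons, was at 57.1, 56.6 and 50.2 CPM in the controls, against 40.4 and 39.7 in row_RNAi1 and 52.6, 41.7 and 41.6 in row_RNAi2. It fell in row_RNAi1 (-0.45, SE 0.10, edgeR adjusted p = 0.00256) and had -0.29 (SE 0.09, edgeR adjusted p = 0.0534) in row_RNAi2, which passed without row_RNAi2 replicate 1, at -0.39 (0.00225), or control replicate 3, at -0.33 (0.0439). Cyp6a17, linked to temperature preference, had 0.11 and 0.13. The cuticle gene Cyp301a1 had 0.09 and -0.09 at about 1 CPM, and Cyp303a1, needed in external sense organs, had 1 count in all. Among other tested members of under 5 CPM, Cyp6d2, Cyp28c1, Cyp49a1, Cyp312a1 and Cyp313b1 had log2 fold changes between -0.68 and 0.86, without a call in either line. Cyp304a1 was at 1.84, 0.207 and 0 CPM in the controls, against 0.363 and 0.578 in row_RNAi1 and 3.94, 0.815 and 1.33 in row_RNAi2, and its row_RNAi2 value of 1.52 (SE 0.77, edgeR adjusted p = 0.290) passed without control replicate 1 (3.94, edgeR adjusted p = 0.0182). Cyp318a1, at 0.657, 1.34 and 1.90 CPM in the controls, against 0.666 and 0.289 in row_RNAi1 and 1.31, 0.905 and 0.979 in row_RNAi2, had -1.46 (SE 0.51, edgeR adjusted p = 0.0532) in row_RNAi1, which passed without control replicate 1 (-1.75, edgeR adjusted p = 0.0238). Cyp317a1 had 0.29 and 0.25.

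Neighbouring P450 genes included genes that rose beside genes that fell or were not called. In the order of the Release 6 annotation, used here for order alone, 40 of the 79 genes lay next to another P450 gene or 1 gene away from it, in 14 groups. The longest group held 9 genes, Cyp6a22, Cyp6a17, Cyp6a23, Cyp6a19, Cyp6a9, Cyp6a20, Cyp6a21, Cyp6a8 and Cyp317a1. Within it Cyp6a8 fell by 1.18 and 1.01 on the log2 scale, and Cyp6a20 fell in row_RNAi1. At the other end of the group Cyp6a22 had 0.29 (SE 0.12, edgeR adjusted p = 0.105) in row_RNAi1 and rose by 0.45 (SE 0.11, edgeR adjusted p = 0.0149) in row_RNAi2, a call that was lost without control replicate 1 (0.0713) and row_RNAi2 replicate 1 (0.0551), with edgeR adjusted p in brackets. Of the genes between these ends, Cyp6a19 was not tested, and Cyp6a17, Cyp6a23, Cyp6a9 and Cyp6a21 were not called by edgeR in either line. Cyp6a21 had -0.17 and -0.17, and Cyp6a9 0.06 and 0.04.

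The 3 Cyp4ac genes moved apart in row_RNAi1. Cyp4ac1 fell in each line, from 81.7, 91.2 and 93.1 CPM in controls to 65.8 and 65.2 in row_RNAi1 and 63.1, 59.6 and 52.4 in row_RNAi2 (-0.44, SE 0.09, edgeR adjusted p = 0.00195 and then -0.61, SE 0.08, edgeR adjusted p = 7.42e-05). Cyp4ac2 was at 17.3, 17.0 and 15.7 CPM in the controls, against 3.51 and 3.93 in row_RNAi1 and 16.9, 14.8 and 11.8 in row_RNAi2. It dropped to 22.3% of the control mean in row_RNAi1 (-2.16, SE 0.17, edgeR adjusted p = 3.35e-08) and overlapped the controls in row_RNAi2 (-0.23, SE 0.13, edgeR adjusted p = 0.367). Cyp4ac3 rose, from 6.44, 4.44 and 6.59 CPM to 11.6 and 13.8 CPM in row_RNAi1 (1.14, SE 0.19, edgeR adjusted p = 0.000240), and was at 11.2, 8.69 and 7.56 CPM in row_RNAi2 (0.62, SE 0.20, edgeR adjusted p = 0.0509), above all controls there as well. The row_RNAi2 change of Cyp4ac3 passed without control replicate 3 (0.75, edgeR adjusted p = 0.0371) or without row_RNAi2 replicate 3 (0.75, edgeR adjusted p = 0.0326). The Cyp4ac genes overlap tkv, a receptor gene whose log2 fold changes were 0.12 and 0.32, neither called by edgeR. As close relatives, they may also share reads among themselves.

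In the smaller groups, Cyp4p3 rose in row_RNAi1 (0.92, SE 0.18, edgeR adjusted p = 0.000957) next to Cyp4p1 (0.18, SE 0.08, edgeR adjusted p = 0.149), and its row_RNAi2 value, 0.36 (SE 0.18, edgeR adjusted p = 0.282), passed without row_RNAi2 replicate 3 (0.58, edgeR adjusted p = 0.0285). Cyp9b1 rose there next to Cyp9b2, and Cyp12a4 next to Cyp12a5. Cyp6a13 rose from 27.2, 26.5 and 29.5 CPM in controls to 39.9 and 37.3 in row_RNAi1 and 33.8, 41.1 and 45.2 in row_RNAi2 (0.48, SE 0.10, edgeR adjusted p = 0.00203 and then 0.55, SE 0.10, edgeR adjusted p = 0.000733). Its neighbour Cyp6a14 was above all controls in every knockdown library, with 0.36 (SE 0.26, edgeR adjusted p = 0.373) and 0.72 (SE 0.24, edgeR adjusted p = 0.0752), the latter passing without control replicate 3 (0.95, edgeR adjusted p = 0.0336). Both genes of the Cyp309 pair rose in row_RNAi2. In the pair of Cyp18a1 and Cyp308a1, both fell in row_RNAi1, and Cyp308a1 was at 1.18, 1.76 and 1.56 CPM in the controls, against 0.303 and 0.462 in row_RNAi1 and 0.492, 0.453 and 0.445 in row_RNAi2, and fell, with -1.95 (SE 0.45, edgeR adjusted p = 0.00374) and -1.70 (SE 0.44, edgeR adjusted p = 0.0158). Its row_RNAi1 call was lost without row_RNAi1 replicate 1 (0.107), and its row_RNAi2 call without control replicate 2 (0.0793), control replicate 3 (0.0549), row_RNAi2 replicate 2 (0.0611) and row_RNAi2 replicate 3 (0.0522), with edgeR adjusted p in brackets. Another annotated gene overlaps 38 of all 79 members. It does so for 18 of the 38 members called in at least 1 line, and for 2 of these (Cyp12b2 and Cyp313a1) that partner was called too. The partners of Cyp6g1, Cyp6t1, Cyp6v1 and Cyp28d1 had too few counts to be tested, and that of Cyp4e2 was not found among the counts. Called in neither line were 29 of the 67 tested members, against 7209 of all 9442 genes tested.

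**Figure D4:**
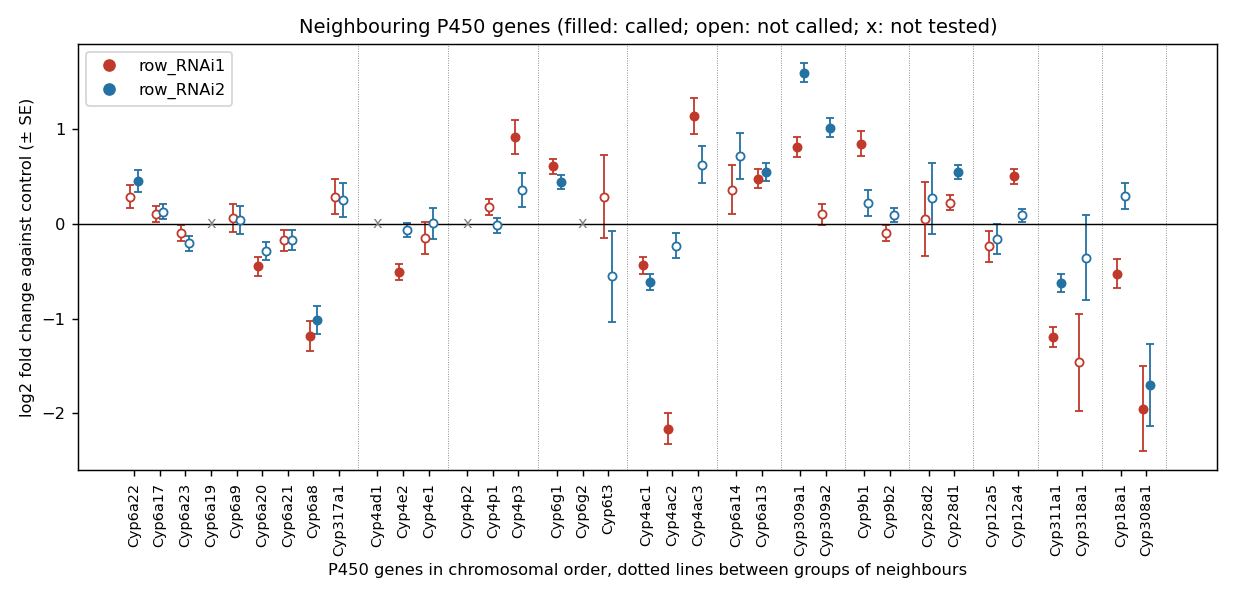
Log2 fold changes against control (± SE, edgeR) for P450 genes in groups of neighbours, in chromosomal order, with dotted lines between groups; filled points were called, open points were not, and x marks a gene with too few counts. Cyp4ac2 and Cyp4ac3 lie on opposite sides of 0 in row_RNAi1, and in the group of 9 Cyp6a8 is far below its neighbours.

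The RNAi lines differed from each other for 17 of the 67 tested members, or 25.4%, against 11.3% of all genes tested. In 12 of them, or 17.9% of the tested members, row_RNAi2 was higher than row_RNAi1, against 4.98% of all genes tested. It was lower in 5, or 7.46% of the tested members, which is near the 6.33% of all genes tested. Genes that were lower in row_RNAi1 than in row_RNAi2 included Cyp4ac2, Cyp305a1, Cyp6w1 and Cyp18a1. For Cyp4ac2 the difference, row_RNAi2 minus row_RNAi1, was 1.93 (SE 0.17, edgeR adjusted p = 5.66e-07), for Cyp305a1 1.17 (SE 0.09, edgeR adjusted p = 1.41e-07), and for Cyp6w1 0.94 (SE 0.10, edgeR adjusted p = 3.84e-06) on the log2 scale. Genes that were higher in row_RNAi1 were Cyp4e3, Cyp12c1, Cyp9b1, Cyp4p3 and Cyp12a4. Cyp4e3 was at 12.2 and 17.4 in row_RNAi1 and 7.54, 6.88 and 8.45 in row_RNAi2, around the 9.85, 8.78 and 12.3 CPM of the controls, and the difference between the lines was -0.96 (SE 0.18, edgeR adjusted p = 0.00143). Among these 5 members, the calls that held with a single row_RNAi1 library depended on which library was left out. Those lost without row_RNAi1 replicate 1 were Cyp4p3, with a difference of -0.52, and Cyp9b1, with -0.60. Those lost without row_RNAi1 replicate 2 were Cyp4p3, with -0.58, and Cyp4e3, with -0.68. The row_RNAi1 libraries were the deepest of the series, and the transcript of row itself was lower in row_RNAi1 than in row_RNAi2 by 0.54 on the log2 scale (SE 0.20, edgeR adjusted p = 0.104), a difference that did not pass the test.

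**Figure D5:**
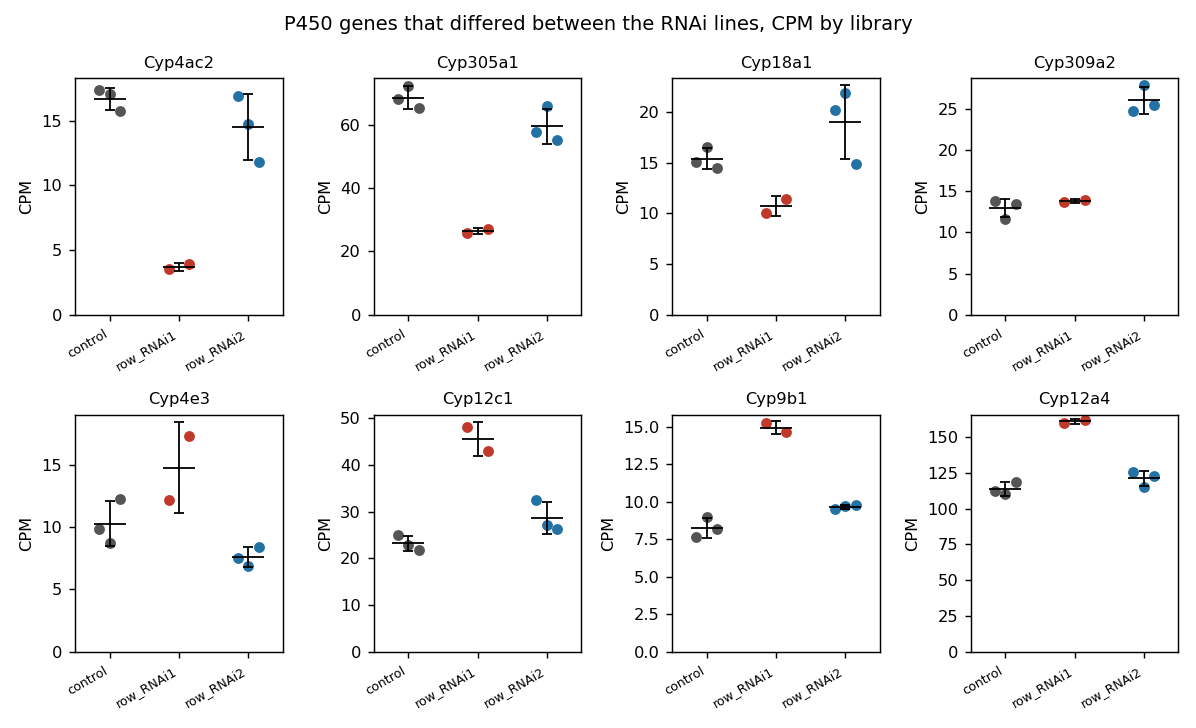
CPM in each library for 8 P450 genes that differed between the RNAi lines, by group, with each axis starting at 0; points are libraries and bars the mean ± SD (3 control, 2 row_RNAi1 and 3 row_RNAi2 libraries). Cyp4ac2 and Cyp305a1 are low in row_RNAi1 alone among these libraries, Cyp309a2 is high in row_RNAi2, and Cyp12c1, Cyp9b1 and Cyp12a4 are highest in row_RNAi1.

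With the lines averaged, 20 of the 67 tested members fell and 14 rose, against 8.56% and 9.24% of all genes tested (17.8% in all). Among genes of at least 5 CPM, 62.7% of members and 19.8% of all genes were called. These calls include members called in 1 line alone, such as Cyp4ac2 and Cyp305a1 in row_RNAi1 and Cyp309a2 in row_RNAi2. Called in each line separately were 13 falling members, or 19.4% of those tested, and 4 rising members, or 5.97%. Over all 9442 genes tested, 371 fell and 397 rose in each line. All 5 knockdown libraries lay below all 3 controls for 15 members, or 22.4%, against 8.29% of all genes tested. They lay above all controls for 12 members, or 17.9%, against 8.9%. Fitted as a single knockdown group, the 5 libraries gave 8 rising members instead of 14 and 14 falling members instead of 20.

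Genes that serve P450 enzymes were followed in lists for electron transfer, heme and regulators, beside the 21.2% of all genes called in row_RNAi1 and the 10.8% called in row_RNAi2. Calls numbered 1 of 6 for electron transfer and 1 of 9 for regulators in row_RNAi1, and 2 of 6, 1 of 8 for heme and 1 of 9 in row_RNAi2. Of 6 tested genes of electron transfer, the mitochondrial ferredoxin gene Fdx2 rose by 0.50 (SE 0.09, edgeR adjusted p = 0.000724) in row_RNAi1 and 0.50 (SE 0.09, edgeR adjusted p = 0.000704) in row_RNAi2. Cyt-b5, the cytochrome that can pass an electron to microsomal P450s, had -0.22 (SE 0.08, edgeR adjusted p = 0.0614) in row_RNAi1 and fell, with -0.38 (SE 0.07, edgeR adjusted p = 0.00144) in row_RNAi2. Its row_RNAi1 value passed without control replicate 1 (-0.27, edgeR adjusted p = 0.0437) or without row_RNAi2 replicate 1 (-0.22, edgeR adjusted p = 0.0420), and also in DESeq2, limma voom and with a minimum of 5 CPM. Cpr, the reductase of microsomal P450s, was at 109, 116 and 111 CPM in controls, 99.6 and 100.4 in row_RNAi1 and 105, 102 and 103 in row_RNAi2, and was not called in either line (0.161 and 0.388, edgeR adjusted p). Of 8 genes of heme synthesis and breakdown, 1 was called, Coprox in row_RNAi2 (-0.32, SE 0.09, edgeR adjusted p = 0.0393), and it lost the call under each left-out library. Alas, the first enzyme of heme synthesis, had -0.08 and -0.12. Among 9 regulators of detoxification genes, the nuclear receptor gene Hnf4 fell, with -0.35 (SE 0.10, edgeR adjusted p = 0.0243) and -0.46 (SE 0.10, edgeR adjusted p = 0.00537), and its row_RNAi1 call was lost without control replicate 2 (0.0874), control replicate 3 (0.0706), row_RNAi1 replicate 1 (0.0947) and row_RNAi1 replicate 2 (0.168), with edgeR adjusted p in brackets. The others were not called by edgeR against control in either line: cnc, which encodes the factor CncC that responds to oxidants and xenobiotics, had 0.20 and -0.04, its inhibitor Keap1 -0.12 and -0.00, its partner maf-S 0.20 and -0.10, and the xenobiotic receptor gene Hr96 -0.09 and 0.17 in row_RNAi1 and row_RNAi2. For cnc the row_RNAi1 value passed without control replicate 3, at 0.26 (0.0226), with edgeR adjusted p in brackets.

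Some markers of tissues that express P450 genes also moved between groups, and their part in the P450 changes was not tested. For comparison with the counts below, 21.2% of all genes tested were called in row_RNAi1 and 10.8% in row_RNAi2. Of 7 tested fat body markers 3 rose and 2 fell in row_RNAi1, and the same numbers did in row_RNAi2, with the perilipin gene Lsd-1 at -1.17 and -0.81 and Lsp2 at 0.05 and 2.23. The summed fat body level was 4263 to 5287 CPM in controls, 5575 to 7049 in row_RNAi1 and 8774 to 10853 in row_RNAi2. The median log2 fold change of the 7 tested markers was 0.05 in each line, so the sum does not describe every marker. Of 7 antennal markers 4 fell in row_RNAi1 and 5 in row_RNAi2, and their sum, held mostly by Obp19d, was 1513 to 1749 CPM in controls, 1133 to 1158 in row_RNAi1 and 1137 to 1229 in row_RNAi2. The antennal binding protein gene Obp83a was at 13.1, 1.14 and 23.3 CPM in the controls, against 0.242 and 13.3 in row_RNAi1 and 0.656, 0.543 and 0.712 in row_RNAi2. Its 2 row_RNAi1 libraries differed widely, and control replicate 2 lay far below the other controls. Of the midgut markers 6 of 9 were found and 2 tested, with a sum of 18.3 to 21.0 CPM in controls, 17.0 to 23.3 in row_RNAi1 and 17.3 to 21.2 in row_RNAi2. The midgut protease genes Jon65Aiv, Jon99Ci and alphaTry were at or near 0. Malpighian tubule markers had 5 of 7 found, a sum of 10.5 to 12.3 CPM in controls, 11.6 to 12.1 in row_RNAi1 and 11.2 to 12.2 in row_RNAi2, held mostly by Irk3, and Uro near 0. Of the salivary gland and foregut markers 4 of 5 were found and tested. The lysozyme genes LysP and LysS rose in both lines, and the other 2 were called in neither. Their summed level was 4.13 to 6.70 CPM in controls, 47.3 to 86.4 in row_RNAi1 and 10.5 to 24.7 in row_RNAi2. Log2 fold changes of the 4 ran from -0.40 to 8.38 in row_RNAi1 and from -0.01 to 5.67 in row_RNAi2, so this sum does not describe every marker either. Glial markers summed to 1056 to 1069 CPM in controls, 828 to 829.6 in row_RNAi1 and 873 to 1003 in row_RNAi2, with 2 of 6 down in row_RNAi1. Muscle markers summed to 2312 to 2481 CPM in controls, 2923 to 3026 in row_RNAi1 and 2518 to 2722 in row_RNAi2. Of these 5 muscle markers 3 rose in row_RNAi1 and 1 in row_RNAi2. Their log2 fold changes ran from -0.32 to 0.61 in row_RNAi1 and from -0.64 to 0.25 in row_RNAi2. Hemocyte markers had 3 of 5 up in row_RNAi1 and 2 down in row_RNAi2, with a sum of 204 to 232 CPM in controls, 257 to 268 in row_RNAi1 and 179 to 187 in row_RNAi2. Of 4 tested oenocyte markers only Hnf4 was called by edgeR, and the oenocyte sum, held mostly by Desat1, was 1448 to 1675 CPM in controls, 1426 to 1491 in row_RNAi1 and 1516 to 1996 in row_RNAi2. Neuronal markers summed to 517 to 552 CPM in controls, 468 to 473 in row_RNAi1 and 486 to 562 in row_RNAi2, and of 6 photoreceptor markers norpA fell in row_RNAi1 (-0.27). Photoreceptor transcripts marked the libraries as heads, with ninaE, which encodes the main rhodopsin, between 7477 and 9377 CPM in every library.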

How the data were processed

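The authors deposited a table of raw counts, whole numbers of reads per gene symbol, for 8 libraries of fly heads. Per the labels' protocols, RNA was taken with TRI Reagent and RNAtag-Seq served to make 3′ libraries. The submitters' processing notes name STAR and the build dm3. The sources used here do not name the counting program, annotation, use of strand or molecular identifiers, so reads of overlapping genes or close paralogs may not be separated, and counting error alone understates the error. The RefSeq Release 6 table belongs to a later build and served only for names, overlaps and gene order.

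The count model was run in R 4.3.3 through edgeR, version 4.0.16: filterByExpr, TMM factors (0.921 to 1.09), a 3-group model on all libraries, and quasi-likelihood F tests with Benjamini-Hochberg adjustment over 9442 genes. The fit was tested on simulated data. SE values derive from the F statistic. Alternatives included DESeq2 1.42.0 and limma 3.58.1 voom. The members, gene lists and tests were chosen with earlier results of these data known. Named were row, members of at least 5 CPM called in each line in 1 direction (up to 12 each way), those with the largest changes in either line or between the lines (up to 6 each way), the 6 members with the most counts, the role and pathway lists, and neighbours of tested members; Cyp4d1, Cyp6v1, Cyp9h1, Cyp28a5, Cyp12b2 and other members outside this rule were named after their values were seen. Of 135 listed symbols, 11 were not found.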

Additional observations from a re-analysis of the deposited data

Results flagged for a closer look

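The effects of the RNAi lines differed for 17 P450 genes in a direct test of row_RNAi2 against row_RNAi1 (quasi-likelihood F test in edgeR, adjusted p under 0.05), and these genes are set out here with that difference on the log2 scale. Transcripts were higher in row_RNAi2 by 1.93 for Cyp4ac2, 1.17 for Cyp305a1, 0.94 for Cyp6w1, 0.92 for Cyp309a2, 0.87 for Cyp4d21, 0.82 for Cyp18a1, 0.78 for Cyp309a1, 0.59 for Cyp6t1, 0.57 for Cyp311a1, 0.44 for Cyp4e2, 0.42 for Cyp9f2 and 0.33 for Cyp28d1. They were lower in row_RNAi2, with differences of -0.96 for Cyp4e3, -0.69 for Cyp12c1, -0.63 for Cyp9b1, -0.56 for Cyp4p3 and -0.41 for Cyp12a4. Of these, Cyp18a1 lay below all controls in row_RNAi1 and in row_RNAi2 had 2 libraries above them and 1 among them, and Cyp4e3 lay below all controls in row_RNAi2 while row_RNAi1 had 1 library within the control range and 1 above it. The calls of Cyp28d1, Cyp4d21, Cyp6t1, Cyp9f2, Cyp4p3, Cyp9b1 and Cyp4e3 between the lines were lost when 1 library was left out (edgeR adjusted p up to 0.273). The row_RNAi1 group has 2 libraries, and the depth of the libraries and the RNAi insertion differ between the lines along with these genes; their part was not tested.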

How the results depend on the processing

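Scaling by RLE size factors, no filter on low counts, a minimum of 5 CPM, DESeq2, limma voom, fits of the compared groups alone, and leaving out each library in turn were tried. Counts of called members stayed within 1.5 times of those reported, with 2 exceptions. With the knockdown libraries as 1 group, 8 members rose on average over the lines instead of 14 and 14 fell instead of 20 (all genes called: 834 instead of 1680). Without row_RNAi1 replicate 1 or replicate 2, which leaves a lone library assumed to vary like the other groups, 3 members were lower in row_RNAi2 than in row_RNAi1 instead of 5. Leaving out 1 library gave 19 to 22 falling and 11 to 14 rising members in row_RNAi1, 10 to 13 and 7 to 11 in row_RNAi2, 20 to 21 and 13 to 15 on average, and 3 to 6 lower and 9 to 14 higher between the lines. In every such fit 18 of 21 falling and 11 of 13 rising members kept their call in row_RNAi1, and 9 of 13 and 6 of 8 in row_RNAi2. Of 124 called comparisons of single genes (P450, pathway genes and row), 88 kept the call under every alternative run and none reversed. Among uncalled comparisons, 29 gained a call under at least 1 alternative. In DESeq2, Cyp6t1 and Cyp308a1 lost their row_RNAi2 calls and Cyp4e3 its row_RNAi1 call. Cyp4ac3, Cyp9h1 and Cyp28a5 passed there in row_RNAi2, and Cyp28d1 in row_RNAi1. The cause of lost and gained calls was not tested. Over all genes, the counts called without row_RNAi1 replicate 1 and replicate 2 were 1226 and 1275 instead of 2001 in row_RNAi1, and 555 in either case instead of 1068 between the lines.

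The labels number the replicates in each group, but same-numbered libraries did not deviate together (correlation of deviations from the group means -0.08 to 0.07), so the numbers were not taken as a pairing. With the replicate number as a block, 21 members fell and 12 rose in row_RNAi1, 13 fell and 9 rose in row_RNAi2, 20 and 14 on average, and 13 were higher and 4 lower between the lines. The 12 members that were not tested had between 1 and 45 counts over all 8 libraries.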

Other observations

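P450 genes that the table lists under trivial names are the ecdysteroid-synthesis genes of the Halloween group. The transcript of spok, needed for an early step of ecdysone synthesis in larvae, had 1 count over the 3 control libraries, 45 over the 2 row_RNAi1 libraries and 17 over the 3 row_RNAi2 libraries. It was called higher in row_RNAi1 (edgeR adjusted p = 0.000494) and in row_RNAi2 (0.0284), the latter not without control replicate 1 (0.0938), control replicate 3 (0.106) and row_RNAi1 replicate 2 (0.0530), with edgeR adjusted p in brackets. The summed counts of sad were 9, 30 and 33 in the same order, and it was not called by edgeR in either line (0.157 and 0.0852). For phm they were 45, 20 and 57. That gene was called lower in row_RNAi1 (edgeR adjusted p = 0.0339) and lost the call without control replicate 1 (0.0580), control replicate 2 (0.0667), control replicate 3 (0.0876) and row_RNAi1 replicate 1 (0.363), with edgeR adjusted p in brackets. The last of them, shd, which makes the active molting hormone, had 11, 8 and 9 counts and was not tested. All these sums are raw counts from libraries of unequal depth, deepest in row_RNAi1, so their ratios are not fold changes. On the log2 scale the 3 tested genes ran from -1.52 (phm) to 4.77 in row_RNAi1, and from 0.20 to 3.62 (spok) in row_RNAi2.

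The untested members held few counts. Cyp313a4 had 45 and Cyp4p2 44 counts over all libraries, and Cyp4d14, Cyp6a16 and Cyp6g2 between 21 and 27. Cyp4ad1, Cyp6a19, Cyp303a1, Cyp310a1, Cyp313a2, Cyp313a3 and Cyp313a5 had 1 to 6.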
